A study of Mus musculus with 4 samples.

Results

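The genes described here are marker genes of endothelium and endocardium, the cell layers that line blood vessels and the inside of the heart. They were taken by name from a list of 36 symbols, with a level of at least 1 FPKM required in any library. FPKM is the number of fragments per kilobase of transcript and 1000000 fragments, so levels can be compared between genes of a library. Of the 36 names, 35 were found among the 22552 gene rows, and all 35 reached that level at both stages. The name Npr3b matched no row and has no value here. The rule itself uses no difference between genotypes, but the list was drawn up with earlier results of these data known.

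Poly-A RNA of whole mouse hearts was sequenced at postnatal day 2.5 (P2.5) and embryonic day 15.5 (E15.5), in mice of the strain labelled Sv129. At each stage there was 1 library labelled dKO, for mice lacking both miR-1 genes, and 1 of a control labelled dHET, so there were 4 libraries in all. For P2.5 the design text calls the control a littermate. The E15.5 table heads its control WT although the sample is labelled dHET. Whether hearts were pooled, and how the alleles were made, is not stated in the labels. The study compared dKO with control hearts.

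The microRNA miR-1 is made in heart and skeletal muscle cells and lowers messenger RNAs that pair with its seed, the bases that recognise a target. Endothelial cells form the coronary vessels, and endocardial cells line the chambers and give rise to the valves. Both depend on VEGF and angiopoietin receptors at the surface, on claudin and cadherin junctions between neighbouring cells, and on transcription factors of the SOX and ETS families. These genes are therefore read mostly from the non-muscle part of the heart. In whole hearts, fewer cells of a type and less RNA per cell cannot be told apart.

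With 1 library per group there was no replicate error and no test of the genotype was possible. Scaling totals recovered from the lowest values were 44600000 and 49900000 fragments for the P2.5 libraries of dHET and dKO, and 86500000 and 103900000 for those of E15.5, and they need not equal the mapped reads. The members had between 590 and 37753 estimated fragments each. The P2.5 pair also differed in sex. Xist, made from the inactive X chromosome, measured 0.101 FPKM for dHET against 50.7 for dKO. Ddx3y, on the Y chromosome, measured 11.7 for dHET and was listed at 0 for dKO. Sex and genotype therefore cannot be told apart at P2.5. At E15.5 Ddx3y was at 15.3 and 14.8 FPKM. The hairpin genes Mir1a-1 and Mir1a-2 were listed at 0 in all 4 libraries, which checks nothing in poly-A RNA.

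Changes are given as log2((FPKM dKO + 1)/(FPKM dHET + 1)), a scale that understates changes of low genes. Over all genes with at least 1 FPKM the median change was 0.066 over 11716 genes for P2.5, and -0.0078 over 11721 genes for E15.5. Rescaling each P2.5 library to the same sum shifted that median by -0.15, to -0.079, so P2.5 changes are read against it. Where an error is printed, it is the standard error (SE) implied by the fold change and test statistic in the authors' deposited table. It belongs to the authors' fold change, which has no added pseudocount, and describes 2 libraries under the authors' model, not the spread between hearts. Statements that a difference lay within or beyond its SE compare that fold change with its SE.

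None of the 35 marker genes differed by 1.5-fold between the genotypes at either stage. Past that fold on the higher side lay 0 of 35 at P2.5, where 3.43% of all genes did, and on the lower side 0, where 1.36% did. At E15.5 the counts were again 0 and 0, against 0.486% and 0.725% of all genes. Changes ran from -0.47 (Cd34) to 0.49 (Fabp4) at P2.5, with a median of 0.11. At E15.5 they ran from -0.19 (Cd34) to 0.40 (Cldn5), with a median of 0.065. Less the median of all genes, the member median came to 0.043 for P2.5 and 0.073 for E15.5.

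At E15.5 the genes lay above 0 in 27 of 35 cases, whereas 47.6% of all genes did. At P2.5 they did so in 22 of 35 cases, against 60.7% of all genes. Above the median of all genes lay 19 of 35 at P2.5 and 28 of 35 at E15.5. Significance was called by the authors' deposited table for 0 of the 35 at either stage, where it calls 0.444% of all genes at P2.5 and 0.862% at E15.5. By that table, a p under 0.05 was given to 0 members at P2.5, against 3.3% of all genes on the higher side and 1.41% on the lower. At E15.5, Cldn5 and Vwf did so on the higher side (2.11% of all genes) and 0 on the lower (1.81%). The authors' own fold change exceeded its implied SE in 8 of 35 members at P2.5, as it did in 26.3% of all genes, and in 10 of 35 at E15.5, against 20.7%.

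**Figure D1:**
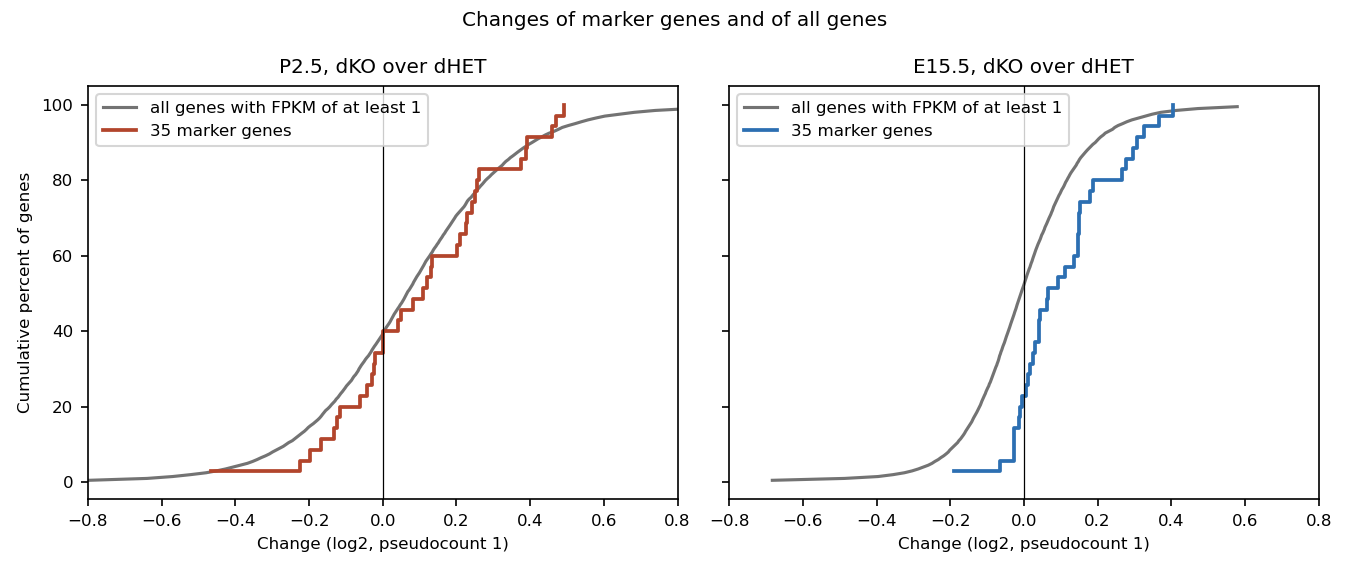
Cumulative percent of genes (vertical axis) by change, dKO over dHET, on the log2 scale with a pseudocount of 1 (horizontal axis), for the 35 marker genes (coloured steps) and all genes with at least 1 FPKM (grey line). At P2.5 the curves lie close, with medians of 0.11 and 0.066, and at E15.5 the marker genes lie to the right, with 27 of 35 above 0.

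The defining markers were well above the floor in every library. Cdh5, which encodes VE-cadherin, the adhesion molecule of endothelial junctions, was at 83.4 FPKM for dHET and 91.5 for dKO at P2.5, with 72.9 and 75.1 at E15.5. The adhesion receptor Pecam1 (CD31) was at 56.9 and 58.9 FPKM at P2.5, with 49.0 and 48.5 at E15.5. In each pair the genotypes were nearly level, with Pecam1 changes of 0.050 (SE 0.35) and -0.014 (SE 0.18). Levels of the 35 genes ran from 4.67 FPKM for Sox17 to 429 for Fabp4 in the P2.5 dHET library, with a median of 31.4, and from 4.52 to 604 in dKO, with a median of 33.3. At E15.5 they ran from 3.89 to 142 in dHET, with a median of 18.9, and from 4.04 to 139 in dKO, with a median of 20.1. Fabp4 was highest in all 4 libraries. Sox17 was lowest in all but the P2.5 dKO library, where Nfatc1 was lowest.

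**Figure D2:**
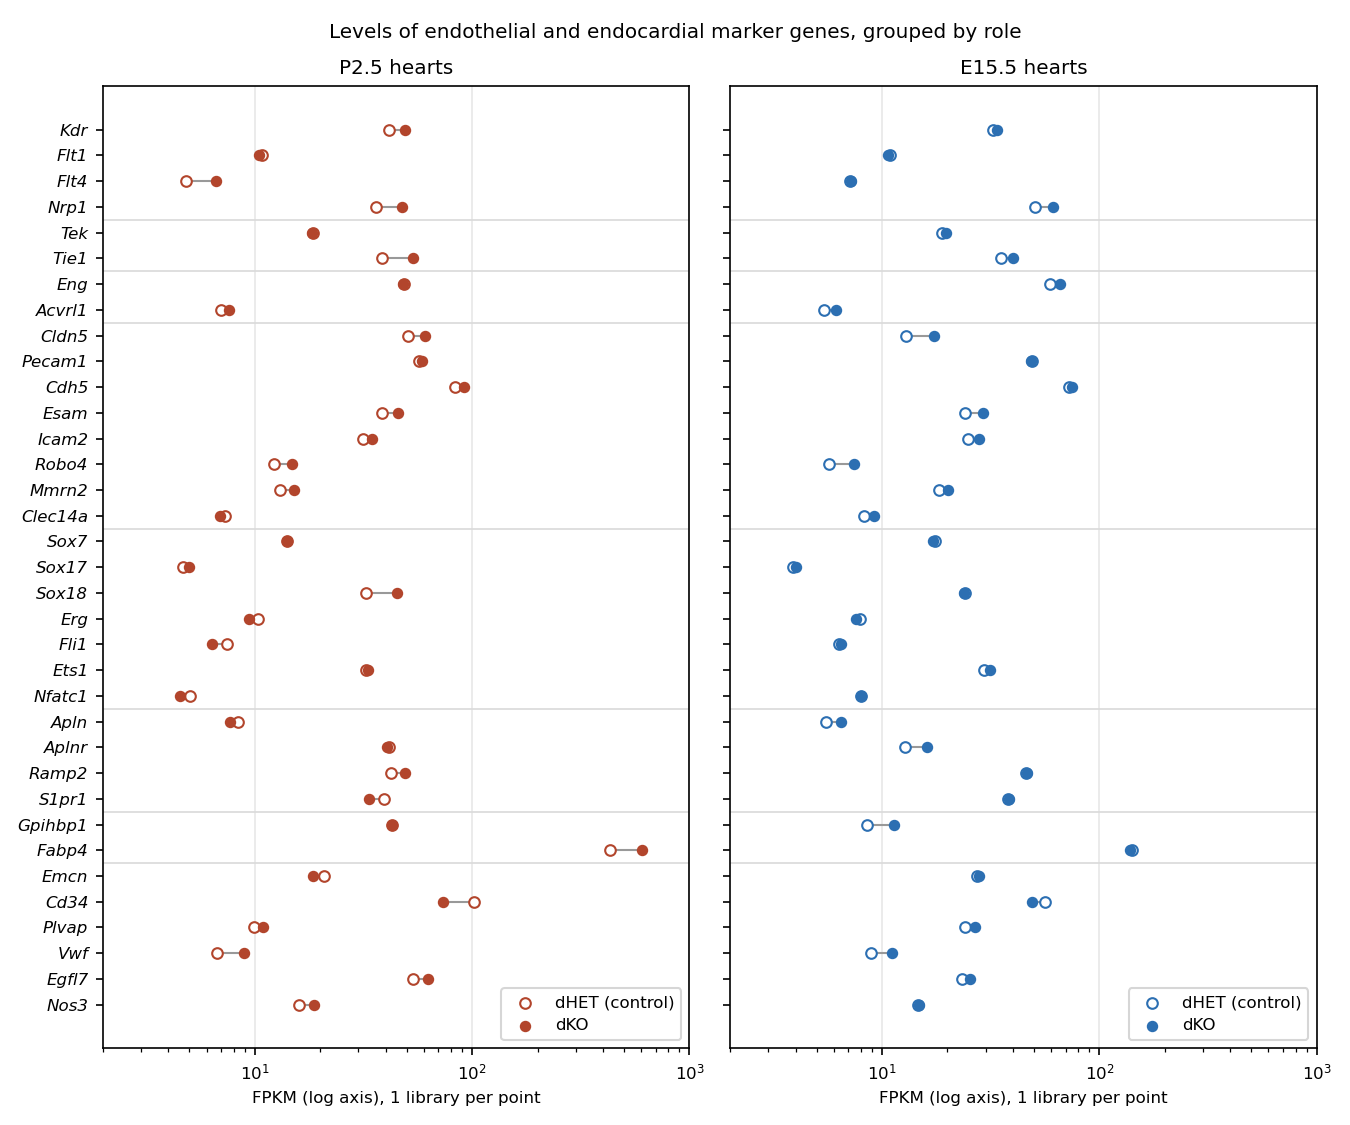
Level of each of the 35 marker genes in FPKM (log axis) at P2.5 (left, red) and E15.5 (right, blue), with 1 library per point, open for dHET and filled for dKO, and grey lines parting the role groups. The genotypes lie close at both stages, and at P2.5 Cd34 is lower and Fabp4 higher in dKO.

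The receptors for VEGF, the growth factor that drives vessel growth, were level or somewhat higher in dKO. Kdr, the main signalling receptor (VEGFR2), was at 41.3 FPKM for dHET and 49.3 for dKO at P2.5, with 32.4 and 33.9 at E15.5. Its decoy-like relative Flt1 was at 10.8 and 10.5 at P2.5, with 10.8 and 10.6 at E15.5. Both receptors thus differed by less than their SE of 0.29 and 0.27 at P2.5. Flt4, the VEGF-C receptor that marks lymphatic vessels, was at 4.81 and 6.62 at P2.5, a change of 0.39 (SE 0.29), and at 7.15 and 7.21 at E15.5, a change of 0.011. The coreceptor Nrp1 was higher in dKO at both stages, at 36.3 and 47.8 FPKM (0.39) and at 50.6 and 61.5 (0.28, SE 0.17).

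Of the angiopoietin receptor pair, Tek (TIE2) hardly differed, at 18.6 and 18.3 FPKM at P2.5, with 18.9 and 19.8 at E15.5. Its partner Tie1, which modulates TIE2 signals, was at 38.3 for dHET and 53.5 for dKO at P2.5. That is a change of 0.47 (SE 0.28), the second highest of the 35 genes, and the p in the authors' deposited table was 0.086. At E15.5 Tie1 was at 35.4 and 40.3 (0.18, SE 0.16). The receptors of the TGF-beta and BMP family in endothelium, Eng (endoglin) and Acvrl1 (ALK1), differed by -0.024 and 0.11 at P2.5. At E15.5 both were slightly higher in dKO, Eng at 59.4 and 65.9 FPKM and Acvrl1 at 5.41 and 6.12, with changes of 0.15 each that were below their SE of 0.17 and 0.20.

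Junction and adhesion genes lay above 0 in 7 of 8 cases at both stages, where 60.7% of all genes did at P2.5 and 47.6% at E15.5, with medians of 0.17 and 0.15. Above the median of all genes lay 6 of 8 at P2.5 and 7 of 8 at E15.5. Cldn5, the tight junction claudin of endothelium (mm9, chr16:18776940-18778353, plus strand), had the largest E15.5 change among the 35. It was at 12.8 FPKM for dHET and 17.3 for dKO there, a change of 0.40 (SE 0.20), with a p of 0.033 in the authors' deposited table. Its q in that table was 0.96, so it was not called significant. At P2.5 Cldn5 was at 50.5 and 60.4 FPKM (0.26, SE 0.27). Robo4, a guidance receptor that stabilises vessels, was at 12.2 and 14.9 at P2.5, with 5.72 and 7.43 at E15.5, changes of 0.26 and 0.33. Esam, an adhesion molecule of endothelial tight junctions, was at 38.5 and 45.8 at P2.5, with 24.0 and 29.1 at E15.5. Its changes were 0.24 (SE 0.27) and 0.27 (SE 0.17), so dKO was the higher library for Cldn5, Robo4 and Esam at both stages. The matrix protein Mmrn2 (0.20 and 0.14), the adhesion molecule Icam2 (0.13 and 0.15) and Cdh5 (0.13 and 0.043) lay above 0 at both stages. Clec14a, a surface lectin of vessels, was at -0.062 and 0.15.

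Transcription factors of the endothelium had medians close to 0. Sox18, which acts in vessel and lymphatic development, lay furthest from 0 at P2.5, with 32.5 FPKM for dHET and 45.0 for dKO. That is a change of 0.46 (SE 0.27), with a p of 0.085 in the authors' deposited table. At E15.5 it was at 24.0 and 23.8 FPKM (-0.012). Its relatives Sox7 (-0.00031 and -0.027) and Sox17 (0.083 and 0.041) stood near 0. The ETS factors Erg, which maintains endothelial identity, and Fli1 were lower in dKO at P2.5. Erg was at 10.4 and 9.38 FPKM and Fli1 at 7.44 and 6.35, changes of -0.13 and -0.20 within their SE of 0.31 and 0.32. At E15.5 they differed by -0.064 and 0.029. Ets1 differed by 0.041 and 0.091. Nfatc1, the endocardial factor needed for valve formation, was at 5.02 and 4.52 FPKM at P2.5, with 8.04 and 8.02 at E15.5. The group's medians were -0.00031 and -0.0039. Less the median of all genes they came to -0.066 and 0.0039. Above the median of all genes lay 2 of 7 at P2.5 and 4 of 7 at E15.5.

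Genes of apelin, adrenomedullin and sphingosine phosphate signalling differed in their pattern between the stages. Apln, the X-linked ligand apelin, was at 8.41 FPKM for dHET and 7.68 for dKO at P2.5, with 5.54 and 6.45 at E15.5. Its receptor Aplnr, a marker of venous and sprouting endothelium, was at 41.5 and 40.6 at P2.5, with 12.8 and 16.0 at E15.5, a change of 0.31 (SE 0.17). So ligand and receptor lay below 0 at P2.5 and above 0 at E15.5, with values within their SE at P2.5 and beyond it at E15.5, and the difference between stages was not tested. S1pr1, the receptor that quiets vessel sprouting, was at 39.3 and 33.5 FPKM at P2.5 (-0.22, SE 0.27), with 38.1 and 38.5 at E15.5. Ramp2, which makes the calcitonin-like receptor respond to adrenomedullin, was at 42.2 and 49.0 FPKM at P2.5, with 46.1 and 46.3 at E15.5.

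Capillary genes of lipid supply included the most abundant member. Fabp4, a fatty acid binding protein of heart capillaries and of fat cells, was at 429 FPKM for dHET and 604 for dKO at P2.5, a change of 0.49 (SE 0.30) and the largest of that stage. At E15.5 it was at 142 and 139 FPKM (-0.027). Of 7 fat cell markers, 1 reached 1 FPKM at P2.5, Pparg at 2.33 and 2.19, and 0 did at E15.5. At each stage 3 of the 7 were listed at 0 in both libraries, Cidec and Cfd at both stages, Lep at P2.5 and Retn at E15.5. The part of fat cells in the Fabp4 values was not tested. Fabp4 weighed heavily on the summed level of the 35 genes, 1418 FPKM for dHET and 1658 for dKO at P2.5, which was 988 and 1054 without it. Gpihbp1, which carries lipoprotein lipase to the capillary surface, was level at P2.5 (42.7 FPKM in both libraries). At E15.5 it was at 8.56 and 11.3, a change of 0.37 (SE 0.27).

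Among surface and secreted markers, Cd34 was the lowest of the 35 changes at both stages. This sialomucin of small vessels, also found on blood progenitors and fibroblast-like cells, was at 102 FPKM for dHET and 73.5 for dKO at P2.5, a change of -0.47 (SE 0.34). At E15.5 it was at 56.1 and 49.0 (-0.19, SE 0.17). Vwf, the clotting factor stored in endothelium and platelets, went the other way, with 6.67 and 8.95 FPKM at P2.5 (0.38, SE 0.27). At E15.5 Vwf was at 8.87 and 11.1 (0.30, SE 0.16), and its p in the authors' deposited table was 0.041. Of 6 platelet markers, 2 reached 1 FPKM at each stage. Pf4 was level at P2.5 (6.14 and 6.13 FPKM) and stood at 2.50 and 3.01 at E15.5 (0.20), and Itgb3 was at 1.37 and 1.62 and at 2.94 and 3.16 (0.14 and 0.079). Their part in the Vwf values was not tested. The sialomucin Emcn, a marker of veins, capillaries and endocardium, was at 20.8 and 18.5 FPKM at P2.5, with 27.2 and 28.1 at E15.5. Plvap, the diaphragm protein of capillary pores, was at 9.90 and 10.9 and at 24.1 and 26.8. Egfl7, a secreted vessel factor whose gene holds the endothelial microRNA gene Mir126, was at 53.6 and 62.9 FPKM at P2.5, with 23.5 and 25.4 at E15.5, and Nos3, the endothelial nitric oxide synthase, at 15.9 and 18.8 and at 14.6 and 14.9. Mir126 itself was listed at 0 throughout.

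Exon sequence is shared with another annotated gene by 6 members, Eng, Acvrl1, Ramp2, Cd34, Egfl7 and Nos3. For Cd34 it is 148 bases with Gm16897 on the opposite strand. For Ramp2 it is 1103 bases with Vps25 on the same strand, and for Nos3 it is 1040 bases with Gm15587 and 294 with Atg9b on the opposite strand. Whether counting used strand is not stated in the labels, so these values could include reads of the neighbour.

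**Figure D3:**
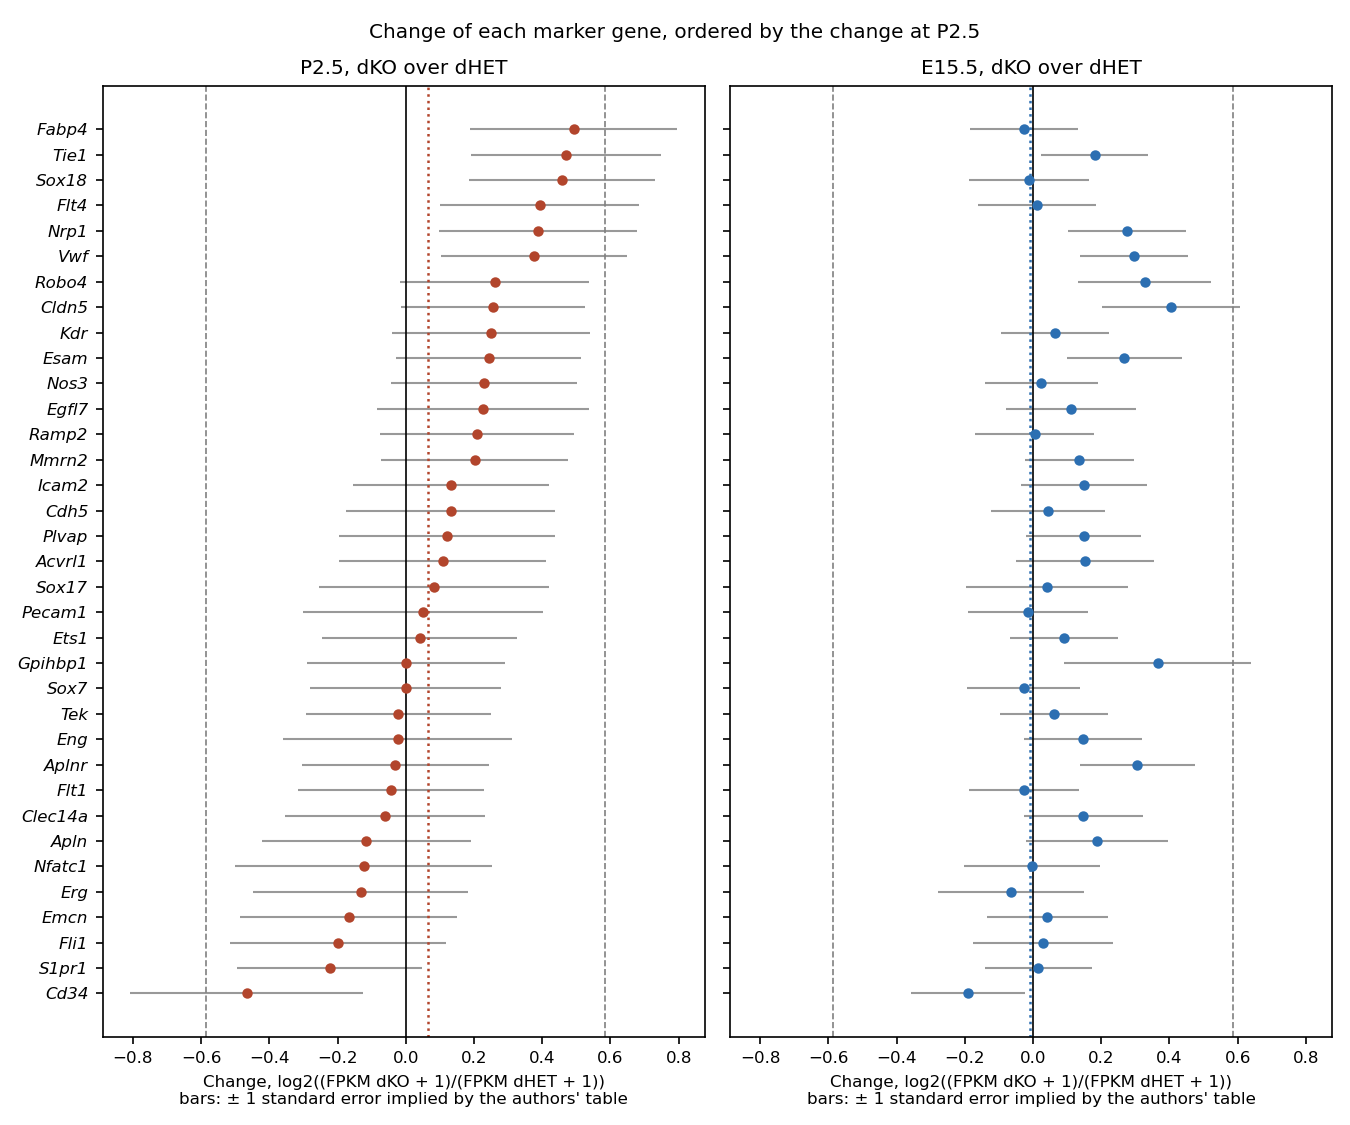
Change of each of the 35 marker genes, dKO over dHET, on the log2 scale with a pseudocount of 1, at P2.5 (left) and E15.5 (right), ordered by P2.5; bars are 1 SE of the authors' own fold change, implied by the authors' deposited table, dashed lines mark 1.5-fold and dotted lines the median of all genes. All points lie inside the dashed lines, Cd34 is the lowest at both stages, and the largest changes are those of Fabp4 at P2.5 (0.49) and Cldn5 at E15.5 (0.40).

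Set side by side, the pairs of libraries of the 2 stages have none in common. Of the 35 genes, 19 lay above 0 at both stages and 5 below 0 at both, namely Cd34, Erg, Nfatc1, Flt1 and Sox7. Of all genes measured at both stages, 36.0% lay above 0 at both and 26.8% below. Another 8 members were below 0 at P2.5 and above at E15.5, and 3 went the opposite way (Pecam1, Sox18 and Fabp4). The 5 genes above 0.2 at both were Nrp1, Vwf, Robo4, Cldn5 and Esam, named after their values were seen. None of the 35 had changes beyond 0.2 in opposite directions. Across the 35 genes Pearson's r between the stages was 0.35 and Spearman's rho 0.28, against 0.37 and 0.38 across 11276 genes. These points share transcript length and base composition, and genes are not replicates. When P2.5 libraries were rescaled to an equal sum, 8 of the 35 P2.5 directions flipped and Cd34 passed 1.5-fold (-0.63).

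Base composition moved with the changes. The GC content of the longest annotated transcript ran from 41.5% (Emcn) to 60.9% (Sox18), with a median of 52.2% against 50.5% over all genes at P2.5. Across the 35 genes Pearson's r between GC content and change was 0.41 for P2.5 and 0.31 for E15.5, and Spearman's rho 0.46 and 0.29. Across all genes r was 0.35 (11414 genes) and 0.16 (11418 genes). The 10 members of lowest GC content (up to 49.4%) had a median P2.5 change of -0.042 and lay above 0 in 4 cases. The 10 of highest GC content (from 56.6%) had a median of 0.23 and lay above 0 in 9 cases. At E15.5 the medians were 0.052 and 0.15. Fabp4 and Nrp1 were high at P2.5 despite a low GC content of 43.6% and 45.3%. Eng and Nfatc1 lay below 0 at P2.5 despite a high GC content of 57.7% and 55.7%. After a linear adjustment for GC content and length, the member median less that of all genes was -0.012 for P2.5 and 0.087 for E15.5. Whether base composition took part in single changes was not tested.

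**Figure D4:**
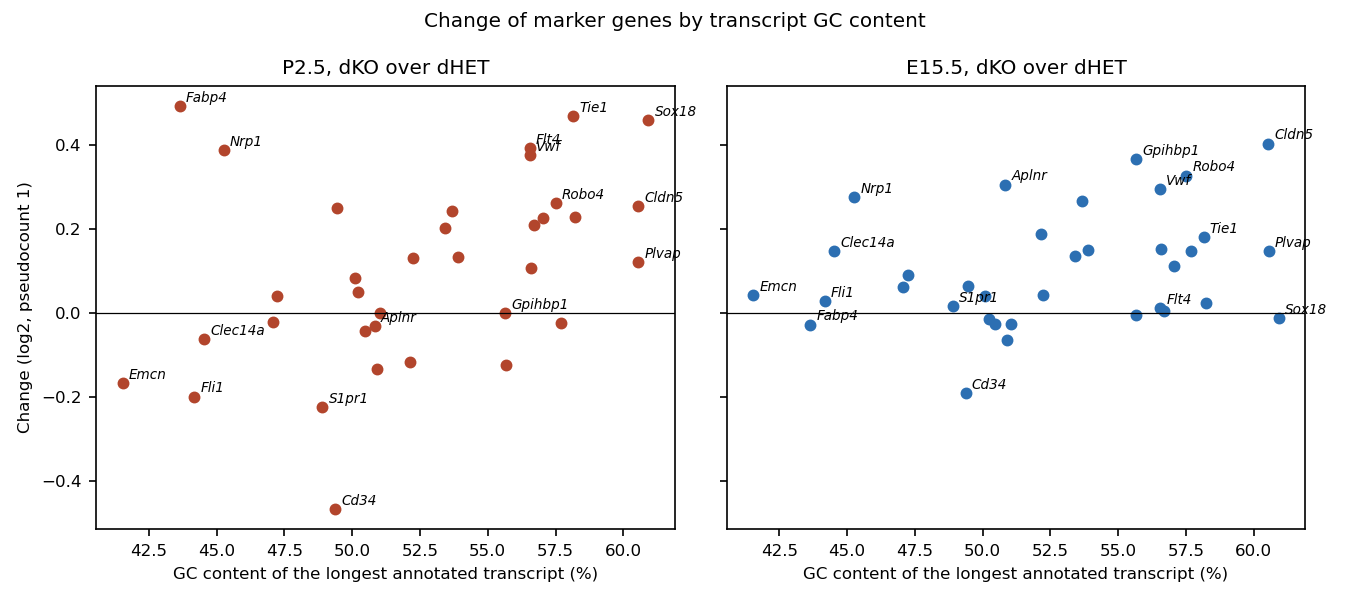
Change of each of the 35 marker genes (vertical axis, log2 with a pseudocount of 1) against the GC content of its longest annotated transcript in percent (horizontal axis), at P2.5 (left) and E15.5 (right). GC-rich genes such as Tie1 and Sox18 lie high at P2.5 and GC-poor ones such as Emcn and Fli1 lie low (Pearson's r of 0.41 and 0.31). Exceptions include the GC-poor Fabp4 and Nrp1, which lie high, and the GC-rich Eng and Nfatc1, which lie below 0.

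The 3' UTRs of the members were searched for the word that pairs with the miR-1 seed. The mature miR-1 was not among the reference sequences. Its relative miR-206, which has the same seed, is shown from RefSeq (GRCm38.p6) with bases 2 to 8, the seed, in capitals, above the members' matches from GENCODE transcripts, where capitals mark the match ACATTCC. Of the 3 Ets1 matches, the first with 8 bases is shown.
miR-206-3p: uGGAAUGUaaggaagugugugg
Nrp1, chr8:131029329-131029335 (plus strand): ctcgaaactacACATTCCaaagaagcagt
Tek, chr4:94541178-94541184 (plus strand): caagaggccgaACATTCCaagtagcagaa
Acvrl1, chr15:100974298-100974304 (plus strand): agcttcagcagACATTCCacctgccgggg
Sox17, chr1:4481258-4481264 (minus strand): acttgttatgtACATTCCaaatattggtt
Ets1, chr9:32563922-32563928 (plus strand): gcaaaggccaaACATTCCagctatatatt
Emcn, chr3:137094762-137094768 (plus strand): actttgactttACATTCCtaatatttgag
Positions are those of the capitals on mm9. Of the sites shown, all but that of Emcn go on with an A, which makes the match 8 bases long (ACATTCCA).

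The word ACATTCC occurred in the longest annotated 3' UTR of 6 of the 35 members (17.1%) and of 11% of all genes at P2.5 with an annotated 3' UTR. The 8-base word occurred in 5 of 35 (14.3%), against 4.28%. CATTCCA, which drops the first base of ACATTCC and adds an A, was also searched. It occurred in 9 of 35 (25.7%), against 12.7% of all genes at P2.5. Ets1 held 3 matches in a 3' UTR of 3395 bases, 2 of them of 8 bases. Member 3' UTRs had a median of 1283 bases, close to the 1204 of all genes. The 6 carriers of ACATTCC had a median P2.5 change of 0.062 and ran from -0.17 (Emcn) to 0.39 (Nrp1). The other 29 members, some of which held CATTCCA, had a median of 0.13. Above 0 at P2.5 lay 4 of the 6 carriers and 18 of the other 29. Over all genes it was 763 of 1249 with the word and 6141 of 10060 without it. At E15.5 the carriers ran from 0.041 (Sox17) to 0.28 (Nrp1), all above 0, with a median of 0.077 against 0.065 for the others. Above 0 at E15.5 lay 21 of the other 29 members. Over all genes, 716 of 1266 with the word and 4672 of 10048 without it did so. Over all genes, carriers and others had P2.5 medians of 0.070 and 0.066 and E15.5 medians of 0.023 and -0.012. A match is a run of letters and does not show that miR-1 binds there.

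Promoters were searched for ACAGGAA, a core word of ETS factors, and for TAAACA, a core word of forkhead factors, on both strands. RefSeq windows of 300 bases were at hand for 15 of the 35 members. These 15 genes had 19 windows. ACAGGAA was held by 4 of the 19, those of Tie1, Emcn and Egfl7, and by 8.67% of all 32851 windows. TAAACA was held by 2 of the 19, those of Clec14a and Erg, and by 13.4% of all windows, so the members' share was no higher. Tie1 and Emcn are shown because they carry the same word and lay on opposite sides of 0 at P2.5 (0.47 and -0.17). Capitals mark TTCCTGT, the word read on the other strand.
Tie1 (GRCm38.p6, chr4:118489800-118490099, minus strand): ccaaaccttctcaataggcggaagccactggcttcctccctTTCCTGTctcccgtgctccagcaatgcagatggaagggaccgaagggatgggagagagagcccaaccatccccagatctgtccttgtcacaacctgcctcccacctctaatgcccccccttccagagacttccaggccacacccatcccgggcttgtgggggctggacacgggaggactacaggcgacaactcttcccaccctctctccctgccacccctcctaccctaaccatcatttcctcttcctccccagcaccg
Emcn (GRCm38.p6, chr3:137340828-137341127, plus strand): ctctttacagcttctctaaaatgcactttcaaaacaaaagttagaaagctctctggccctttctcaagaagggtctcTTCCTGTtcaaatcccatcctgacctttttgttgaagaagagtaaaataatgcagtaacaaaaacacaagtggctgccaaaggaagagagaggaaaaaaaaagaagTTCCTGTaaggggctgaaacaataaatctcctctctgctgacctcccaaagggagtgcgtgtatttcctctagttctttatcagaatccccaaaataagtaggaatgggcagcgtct
The Tie1 window has 1 match and a GC content of 60.3%, and the Emcn window has 2 matches and 41.0%. A match describes letters and shows no binding.

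Of 7 measured VEGF and angiopoietin ligands, 0 passed 1.5-fold at P2.5 and 1 did at E15.5, on the lower side. Of all genes, 3.43% passed it on the higher side and 1.36% on the lower at P2.5. At E15.5 the shares were 0.486% and 0.725%, and the counts of the lists that follow are read against them. Angpt2, which antagonises TIE2 and marks remodelling vessels, was at 2.84 FPKM for dHET and 0.917 for dKO at E15.5, a change of -1.001. The authors' own log2 fold change for Angpt2, without a pseudocount, was -1.63 (SE 0.49), and its dKO level lay below 1 FPKM. In the authors' deposited table its p was 0.00083 and its q 0.079. At P2.5 Angpt2 was at 1.07 and 1.22 FPKM. Angpt1, the activating ligand, was at 7.06 and 8.65 at E15.5 (0.26) and at 2.49 and 1.89 at P2.5 (-0.27). Vegfc, the ligand of Flt4, was at 4.48 and 5.85 FPKM at P2.5 (0.32, SE 0.38), and Vegfb at 76.0 and 91.8 (0.27, SE 0.33). Vegfa was at 72.3 and 78.6 FPKM at P2.5, with 70.2 and 66.8 at E15.5.

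Arterial and Notch genes had 0 of 13 members past 1.5-fold at P2.5 and 1 at E15.5, on the lower side (0.725% of all genes). Their medians were 0.10 and 0.017. Heyl, a Notch target of vessel walls, was at 9.33 FPKM for dHET and 5.27 for dKO at E15.5 (-0.72, SE 0.18), and it is called significant in the authors' deposited table (q = 0.0017). The ligand Jag1 was at 9.37 and 6.40 (-0.49, SE 0.17). The list held members on both sides of 0, with 7 of 13 above it at E15.5 (47.6% of all genes) and 10 of 13 at P2.5 (60.7%). At P2.5 the receptor Notch4 was at 7.53 and 11.6 FPKM (0.56, SE 0.27) and the factor Hey2 at 39.8 and 30.9 (-0.35). The venous gene Ephb4 was higher in dKO at both stages, within its SE (0.23, SE 0.30, and 0.12, SE 0.16). Nr2f2 was near level (0.026 and -0.051), and Nrp2 had a failed status at P2.5.

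Of the endocardial list, which also holds the members Tie1 and Nfatc1, 0 of 5 measured genes passed 1.5-fold at P2.5 and 0 of 7 at E15.5. Npr3, the natriuretic peptide clearance receptor of endocardium, was at 4.48 and 4.76 FPKM at P2.5, with 14.8 and 18.3 at E15.5 (0.29, SE 0.17). Genes of valve formation and endothelial-mesenchymal transition lay below 0 in 10 of 13 cases at P2.5 and in 11 of 14 at E15.5, with medians of -0.13 and -0.048, while 60.7% and 47.6% of all genes lay above 0. Among them the matrix proteoglycan Vcan was at 18.0 and 12.2 FPKM at P2.5 (-0.53), the factor Snai2 at 4.003 and 3.009 (-0.32), and its relative Snai1 on the higher side at 1.48 and 2.26 (0.39). Only Twist2 passed 1.5-fold, at 1.54 and 0.587 FPKM at E15.5, where 0.725% of all genes did so on the lower side. The lymphatic genes Prox1 (-0.26 at both stages), Pdpn and Lyve1 were below 0 at P2.5, although heart muscle also expresses Prox1. The adrenomedullin receptor Calcrl was at 7.97 and 5.62 FPKM at P2.5 (-0.44, SE 0.29) and its ligand Adm at 4.69 and 5.44.

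Of 48 further endothelial genes, a list that also holds the member Sox17, 43 were measured at P2.5, with a median of -0.030, and 42 at E15.5, with a median of 0.052. At P2.5 none passed 1.5-fold and 19 of 43 lay above 0, against 60.7% of all genes. The highest were Fabp5 (0.58), a fatty acid binding protein whose near-identical copies make its value uncertain, and Ctla2a (0.56). The lowest were Tmem100 (-0.52) and Cxcr7 (-0.39). At E15.5 2 of 42 passed 1.5-fold on the lower side, against 0.725% of all genes. They were the chemokine Cxcl12, at 73.8 FPKM for dHET and 47.3 for dKO, and the factor Foxc2, at 3.51 and 1.96. In the authors' deposited table their q was 0.11 and 0.23, so neither was called significant. Above 0 lay 24 of 42, against 47.6% of all genes.

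**Figure D5:**
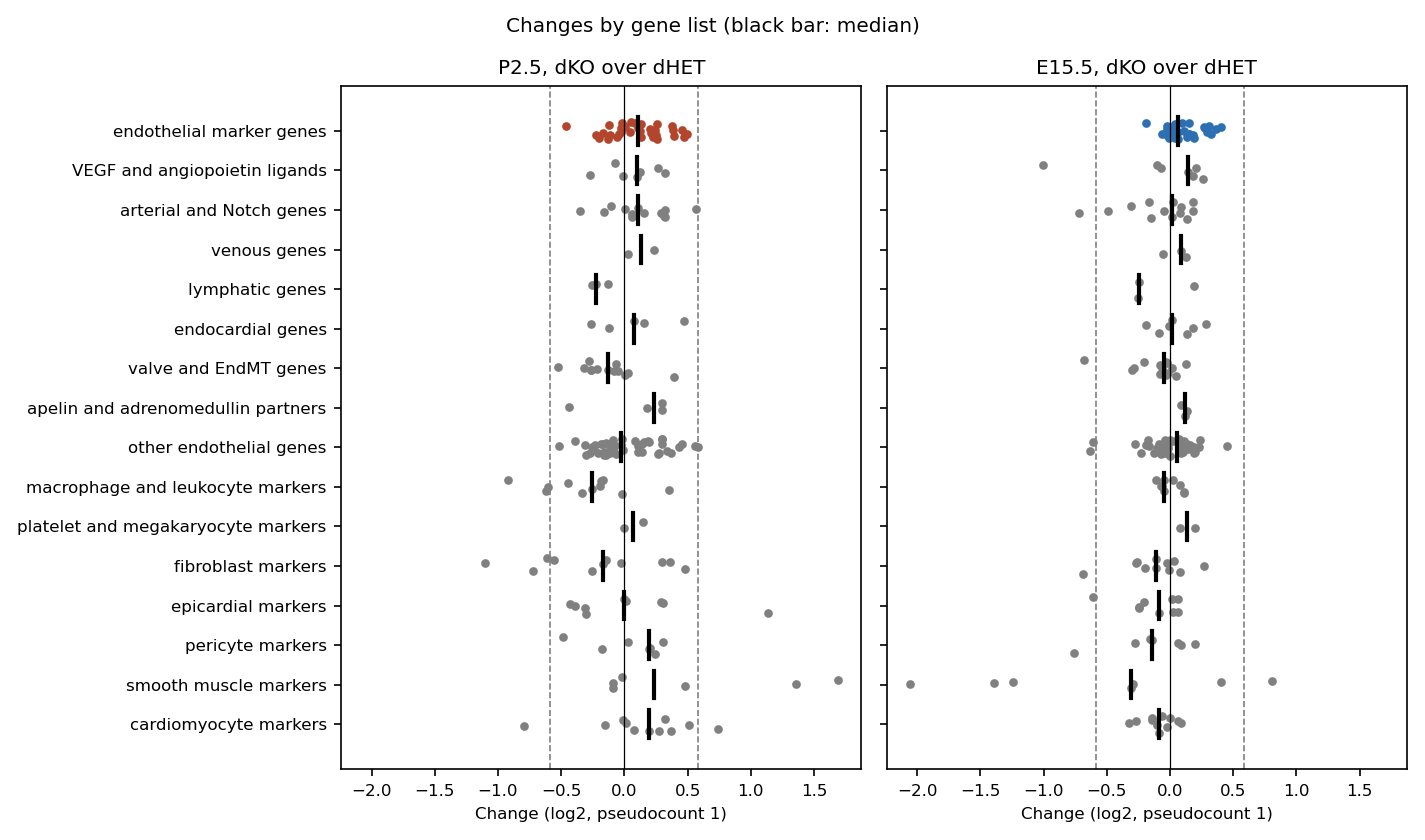
Change of each measured gene (points, log2 with a pseudocount of 1, dKO over dHET) by list at P2.5 (left) and E15.5 (right), with black bars for medians and dashed lines at 1.5-fold; EndMT stands for endothelial-mesenchymal transition, and the erythroid, fat cell and sex-linked lists are left out. The endothelial marker genes (coloured) all lie inside the dashed lines, while smooth muscle markers reach 1.69 and -2.05.

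Lists of markers for other cells in the heart are given beside these values, to be read against the shares of all genes past 1.5-fold, which for P2.5 were 3.43% higher and 1.36% lower, and for E15.5 were 0.486% and 0.725%. At P2.5, smooth muscle markers had 2 of 6 members at least 1.5-fold higher (Acta2 and Cnn1), and their summed level was 748 FPKM for dHET and 1820 for dKO. At E15.5 they had 1 of 7 higher and 3 lower (Myh11, Lmod1 and Actg2), with sums of 871 and 1393. Acta2 made up most of these sums, at 658 and 1692 FPKM at P2.5 and at 692 and 1215 at E15.5. The medians of the smooth muscle list were 0.23 at P2.5 and -0.30 at E15.5. Above 0 lay 3 of 6 and 2 of 7, against 60.7% and 47.6% of all genes. Fibroblast markers had 3 of 11 lower at P2.5 (Mfap5, Lum and Dcn) and 1 of 11 at E15.5 (Mfap5), with sums of 1492 and 1544 and of 1180 and 1129. At P2.5 3 of 11 lay above 0 (60.7% of all genes), namely Col1a1 (0.48), Col1a2 (0.36) and Col3a1 (0.30). Macrophage markers had 3 of 11 lower at P2.5 (Cd68, Cd52 and C1qc), with sums of 56.8 and 43.9, and 0 of 9 past 1.5-fold at E15.5, with sums of 34.96 and 35.26. Pericyte markers, which come from the cells that wrap capillaries, had 0 of 7 past 1.5-fold at P2.5 and 1 lower at E15.5 (Rgs5, at 25.1 and 14.5 FPKM). Their sums were 569.6 and 608 and 331 and 325. Des made up most of these sums, at 385 and 442 FPKM at P2.5 and at 217 and 227 at E15.5. The next most abundant at P2.5, Abcc9 (-0.48) and Rgs5 (-0.17), were lower in dKO. Above 0 lay 5 of 7 at P2.5 and 3 of 7 at E15.5, against 60.7% and 47.6% of all genes. Heart muscle markers had 1 of 11 higher (Tnnt2) and 1 lower (Pln) at P2.5 and 0 of 11 at E15.5. They summed to 24117 and 30886 FPKM at P2.5 and to 14085 and 13325 at E15.5. Red cell markers had 2 of 3 higher at P2.5 (Hbb-b2 and Hba-a2) and 1 of 5 at E15.5 (Hbb-b2), with sums of 226 and 404 and of 329 and 386, and near-identical globin copies make these values uncertain. Epicardial markers had 1 of 9 higher at P2.5 (Krt18) and 1 of 9 lower at E15.5 (Krt19). Their medians were -0.0034 at P2.5 and -0.086 at E15.5. Above 0 lay 4 of 9 at each stage, against 60.7% and 47.6% of all genes. No marker of these lists was listed at 0 in both libraries of a pair, except Hbb-bh1 at P2.5. Their part in the changes of the endothelial genes was not tested.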

How the data were processed

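The authors deposited 1 table per stage with FPKM per gene for 2 libraries and, per the file headers, their own log2 fold change, test statistic, p-value and q-value. The submitters' processing notes name TopHat, Bowtie, Cufflinks and the mm9 build, while versions, filters and scaling are not given there. Commas in gene names had displaced 86 rows per stage, which were realigned. Genes whose status was a failed estimate or too many fragments were left out. The E15.5 fold change was turned to dKO over dHET. From the FPKM, changes with a pseudocount of 1 were computed within a stage for genes with at least 1 FPKM in either library, and counted at 1.5-fold. The implied SE is the absolute fold change over the absolute test statistic. The steps were tested on simulated data. Scaling totals came from the value of 1 fragment in low, single-transcript genes. Transcripts, 3' UTRs and positions came from GENCODE M1 (NCBIM37, the assembly of mm9), and promoters from RefSeq. Members and lists were chosen with earlier results of these data known. Named genes were all members, and from other lists up to 4 genes with the largest absolute changes, plus Npr3, Vegfa, Angpt1, Angpt2, Calcrl and Adm. Markers of other cells past 1.5-fold, the fibroblast collagens, Tmem100, Cxcr7, fat cell genes listed at 0 and Ly6c1 were named after their values were seen. Alternatives were other pseudocounts (0.1 and 5), minimum levels, scalings, status flags and an adjustment for GC content and length. Python 3.11.15 with pandas 2.3.3 and numpy 2.4.6 was used.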

Additional observations from a re-analysis of the deposited data

Results flagged for a closer look

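These genes differed by more than 0.2 in opposite directions at the 2 stages, with 1 pair of libraries each, and the difference between stages was not tested. Among the ligands, Angpt1 differed by -0.27 at P2.5 and 0.26 at E15.5. Among the further endothelial genes, Ly6c1 differed by -0.23 and 0.45. Among markers of other cells, Col1a2 differed by 0.36 and -0.27, Tcf21 by -0.26 and 0.27, Myh11 by 0.48 and -2.05, and Tnni3 by 0.32 and -0.33. None of the 35 marker genes was of this kind.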

How the results depend on the processing

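Over 9 other settings, the member median stayed within 0.1 of its main value and the count past 1.5-fold stayed at 0 at both stages, except when each library was rescaled to a sum of 1000000. That scaling moved the P2.5 median to -0.036 and the P2.5 count to 1, which was Cd34 (-0.63). Relative to the median of all genes, the P2.5 member median was 0.043 under that scaling too. Single members moved by less than their implied SE in all 307 comparisons at P2.5 and all 305 at E15.5. Minimum levels and status flags choose genes and cannot move a single value, and centring moves all members alike. Much of this outcome was therefore fixed in advance. Members with the same direction at both stages numbered 24 of 35 (68.6%), near the 62.8% of all genes. Where all 35 were counted, the settings tried gave from 18 (rescaling) to 24. At levels of at least 10 FPKM it was 17 of 25. Centring on the median of all genes turned the direction of 3 members at P2.5 and 1 at E15.5, and the adjustment for GC content and length that of 4 and 3. No paired analysis was possible because each group has 1 library, and for the same reason no library could be left out. The members had at least 590 estimated fragments each, so the limit is the single library per group, which gives no replicate error.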

Other observations

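Levels of the 2 stages come from tables that were normalised separately, from single reads at P2.5 and read pairs at E15.5, so they are given side by side with no test. Some marker genes stood at much higher levels at P2.5 in both genotypes. Gpihbp1 was at 8.56 FPKM in the E15.5 dHET library and at 42.7 at P2.5, and in dKO at 11.3 and 42.7. It moved from rank 26 to rank 8 among the 35 genes in dHET and from 24 to 14 in dKO. Cldn5 moved from rank 22 to rank 6 in dHET and from 20 to 5 in dKO, and Aplnr from 23 to 10 and from 22 to 15. Plvap, the pore diaphragm gene, moved down, from rank 14 to 27 in dHET and from 15 to 25 in dKO. On the log2 scale with a pseudocount of 1, P2.5 over E15.5 was 2.19 in dHET and 1.83 in dKO for Gpihbp1, 1.90 and 1.75 for Cldn5, and -1.20 and -1.23 for Plvap. These stage differences were alike in both genotypes (Pearson's r of 0.96 across the 35 genes, as a description of points that share both tables' scaling).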
